A study of Homo sapiens with 3 samples.

Results

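Ribosome profiling in HEK293T cells, a transformed human embryonic kidney line, gave 257 genes with ribosome peaks only in cells expressing wild-type DDX3X. A gene entered the set when the wild-type list placed 5 or more peaks on it and the vector and G325E lists placed 0. The rule was applied to 1509 genes with 5 or more wild-type peaks, so the 257 genes were 17.0% of them, and 3580 genes had a peak in any list. Genes whose symbols start with RPL, RPS, EIF, EEF, HNRNP, SRSF, HIST, PSM, SLC, ZNF, NDUF or DDX were set aside by the same rule, and 22 of these would otherwise have qualified. The genes were chosen by their peak counts in these same lists, so those counts are given as a description and carry no test.

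The helicase DDX3X belongs to the DEAD-box family, unwinds structured RNA and takes part in the start of translation, and its gene is recurrently mutated in medulloblastoma. G325E replaces a glycine of the helicase core with glutamate. Ribosome profiling sequences the short stretches of mRNA that a ribosome shields from nuclease, so that clusters of reads mark where ribosomes sat. A peak list keeps the places where such reads piled up past a cut-off, and a gene with few or shallow reads leaves no row.

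The series compared 3 libraries, with 1 library per construct. Cells were transfected for 24 h with empty vector, with wild-type DDX3X or with the G325E mutant. Transfection left the endogenous DDX3X gene in place in all of them, vector cells included. Per the labels, cells were given 2 µg/ml harringtonine over 90 s and then 100 µg/ml cycloheximide, while the methods of the study mention cycloheximide alone. The former drug arrests ribosomes that have just initiated, and the latter blocks elongation.

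The lists held 11219 vector, 19920 wild-type and 15680 G325E peaks, with no height, score or read number for any of them. By the read totals in the study's supplement the wild-type library had the most mapped reads after removal of duplicates and the G325E library the fewest, and the part of depth in the set was not tested. On DDX3X itself the wild-type list had 32 peaks, the G325E list 9 and the vector list 0. The labels call the cells neuronal, and 3 of 17 neuronal marker genes (TUBB3, NEFL and NEFM) had peaks in each list, with none on the others, which include SNAP25, RBFOX3 and DCX. Of 15 kidney and HEK293 markers, the vector list held 2, the wild-type list 8 and the G325E list 5, and KRT18 and SALL1 among these are in the wild-type-only set. None of 9 fibroblast or 9 blood markers had a peak in any list.

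Sequences under the longest coding peak show where ribosomes were placed on the 6 genes with the most peaks. Each line gives 30 bases of the reference genome (GRCh37) around the peak's midpoint, in the sense of the transcript, with the in-frame codon at the midpoint in capitals. All of these bases lie in the coding sequence of the canonical transcript of GENCODE release 44 lifted to GRCh37. The name in brackets is the gene whose RefSeq transcript holds the peak, where that gene and the assigned one differ.
GAPDH: ccccctcaagggcATCctgggctacactga
LOC100130776 (OS9): cagagtccagagCTGgtgaagaagcacaag
MUC6 (AP2A2): cccaagaaccgcccAAGtcgaagaaggtcc
BSN-AS2 (DAG1): actcgcaggccaACCaagaaaccacggaca
NRM (MDC1): agaggaggagcccAACagaataccaagccg
HEXIM1: gcagagacagctgGGGaagaaaaaacatag

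The GAPDH stretch lies at chr12:6647028-6647057 on the plus strand, in exon 7 of 8, at codon 273 under a peak of 194 bp. The OS9 stretch lies at chr12:58112887-58112916 (+) in exon 11 of 13, at codon 512. The AP2A2 stretch lies at chr11:985489-985518 (+) in exon 8 of 22, at codon 295. All of these are internal to the reading frame, well past the start codon. The DAG1 stretch lies at chr3:49569280-49569309 (+) in exon 3 of 3, at codon 450. The MDC1 stretch lies at chr6:30671241-30671270 on the minus strand in exon 11 of 15, at codon 1874. The HEXIM1 stretch lies at chr17:43226989-43227018 (+) in the single exon of that gene, at codon 149.

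The 257 genes carried 1997 wild-type peaks, or 10.03% of the wild-type list. The median was 7 peaks per gene and the maximum was 41. Exactly 5 peaks were found on 64 genes, 8 or more on 99, and 12 or more on 23. The genes lay on 23 chromosomes, with 30 on chromosome 1, 19 on chromosome 12, 18 on chromosome 11 and 17 on chromosome 19.

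**Figure D1:**
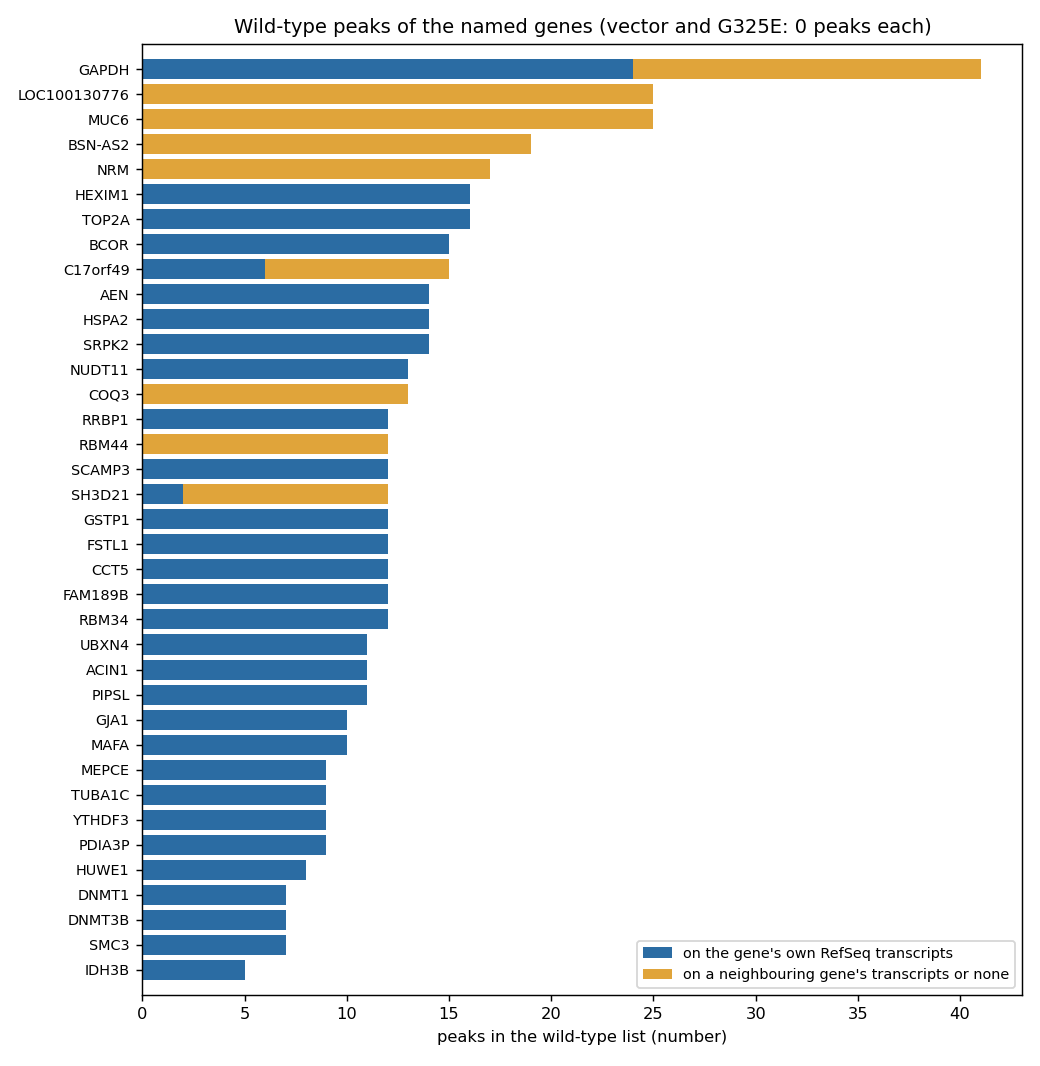
Number of wild-type peaks (x axis) on named genes (y axis), split into peaks on the gene's own RefSeq transcripts (blue) and peaks on another gene's transcripts or on none (orange), with 0 peaks for every gene in vector and G325E. GAPDH leads with 41 peaks, of which 24 are its own, and the next 4 names hold none of their own.

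The assigned name was often that of a neighbour. Peaks lay mostly on the gene's own RefSeq transcripts for 199 of the 257 genes, and wholly so for 174. For 46 genes most peaks lay on the transcripts of another gene, and 12 were mixed or had no transcript. Of the 1997 peaks, 1481 were on the transcripts of the gene they were counted under. Even among the 199, canonical exons of another gene held more than 50% of the peaks of 15, such as TBL3 for all 11 peaks of NOXO1 and SNW1 for all 10 of SLIRP, and TBL3 had 0, 9 and 3 peaks of its own in vector, wild-type and G325E.

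Among the genes with the most peaks, OS9, which encodes a lectin of endoplasmic reticulum-associated degradation, held all 25 peaks counted under LOC100130776. AP2A2, a subunit of the clathrin adaptor complex AP-2, held all 25 counted under the mucin gene MUC6. DAG1, which encodes dystroglycan, held the 19 peaks of BSN-AS2. These transcripts had 0 peaks in vector and G325E under their own identifiers as well. The DNA damage mediator MDC1 held the 17 peaks of NRM, and PNISR held the 13 of COQ3. LRRFIP1 held the 12 of RBM44, and the transcription co-activator THRAP3 held 10 of the 12 of SH3D21.

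In 42 of the 46 cases the transcript that held the peaks also had 0 peaks in vector and G325E. A vector or G325E row on the same stretch would mostly have been counted under the same name and excluded the gene. The rule therefore largely sets this count, and no conclusion is drawn from it. The others differed at the level of the transcript. For example, CTCF, the insulator protein counted under RLTPR, had 12 peaks in wild-type, 0 in vector and 8 in G325E. SEPTIN6 had 8, 0 and 2 in that order, and TRMT1 had 10, 0 and 1. When host genes were taken from the RefSeq gene table instead, 255 genes met the rule, and 1804 peaks were common to both sets, which is 90.34% of the peaks counted here and 91.67% of the 1968 in that set.

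GAPDH, the glycolytic dehydrogenase, had 41 peaks in wild-type and was listed at 0 in vector and in G325E (chr12:6634802-6647400). Of these, 24 were on GAPDH transcripts and 17 on those of NCAPD2, a condensin subunit that lies next to it. Coding peaks on GAPDH ran from codon 68 to codon 273, and those on NCAPD2 from codon 761 to codon 1388. A list at 0 allows up to 3 peaks by counting error alone, if peaks are taken as independent. Peaks of one gene share a transcript, so this limit may be too low. With 3 peaks in place of 0 and counts scaled to list totals, wild-type stayed above vector in 193 of the 257 genes. It was more than 2 times vector in 37. The 64 genes with exactly 5 peaks came to 0.94 of vector on this measure, so their 0 does not set vector apart. Against G325E all 257 were above 1 and 99 were above 2.

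Several genes in the set are used by nearly every cell, so a row at 0 cannot be read as absence of translation. Besides GAPDH these were HSPA8 with 9 peaks, TUBA1C with 9, CCT5 with 12, PRDX1 with 6 and ARF1 with 5. Other abundant genes were in every list, among them ACTB with 25 vector, 25 wild-type and 26 G325E peaks and EEF2 with 41, 34 and 35. Ubiquitous glycolytic enzymes such as PGK1 had no peak in any list.

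The rule was also applied with each of the other lists as the entry. With 5 or more vector peaks as the entry, 15 of 861 genes (1.74%) had 0 in both other lists, and with 3 or more, which scales the threshold to the vector total, 24 of 1324 (1.81%) did. With 5 or more G325E peaks, 292 of 1309 (22.3%) had 0 in the others, and with 4 or more 336 of 1529 (22.0%) did. Genes found in a single list made up a larger share for G325E than the 17.0% for wild-type, and a small one for vector. Taken by themselves, 463 of the 1509 genes (30.7%) had 0 in vector and 502 (33.3%) had 0 in G325E, and both counts share the wild-type list.

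At the edge of the rule, 81 genes had exactly 4 peaks in wild-type and 0 in both others, 64 had exactly 5 and 48 had exactly 6. Only 16 genes with 5 or more wild-type peaks had exactly 1 peak in the other lists together, 12 in vector and 4 in G325E. Those with the most wild-type peaks were C11orf95 with 12 and MRPL21 with 10, each with 1 vector peak, then PLS3 with 9 and RPA2 with 8, also with 1 in vector, and NUP188 with 8 and 1 in G325E. LOC728066 (7), SS18 (5) and PAICS (5) had 1 in vector, while CCP110 (6) and IL17C (6) had 1 in G325E.

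Peaks are numbered in genome order in every list, and the vector list skips 1952 of its 13171 numbers, the wild-type list skips 3099 of its 23019, and the G325E list skips none of 15680. Of the 252 genes with vector rows on both sides, 186 had no vector number skipped between those rows, 66 had 1 or more and 4 had 5 or more, up to 20. For the 186 no numbered vector peak could have lain there. No vector or G325E row fell between the first and last wild-type peak of any of the 257 genes, which the rule largely sets. When 0 peaks were also required within the annotated gene span, 249 genes remained. Only 223 of the 257 could be matched to a span. The median distance to the nearest row was 157.1 kb for vector and 157.6 kb for G325E. A vector peak lay within 10 kb of 13 genes and a G325E peak within 10 kb of 16.

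Some genes in the set were neighbours whose peaks were not independent. Another of the 1509 genes had a peak within 20 kb of a peak of 34 of the 257, and for 10 of these (29.41%) the nearest one was also in the set. The same was true of 13 of 191 genes with peaks in all 3 lists (6.81%). The 10 formed 5 pairs, namely EMG1 with PHB2, SCAMP3 with FAM189B, SH3D21 with FAM176B, ARFGAP1 with MIR4326, and MIR1234 with MIR939. Peaks of the first of these pairs came within 40 bp of each other, and the 6 counted under EMG1 were all in the promoter class and all lay on canonical exons of PHB2. Both microRNA names of the last lie on CPSF1, a subunit of the cleavage and polyadenylation factor, which had 15 wild-type peaks and 0 in the other lists.

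Most peaks were in exons. The HOMER annotation in the lists placed 59.04% of the 1997 peaks in the exon class (interval 56.84 to 61.21), 16.98% in the class around promoters and transcription start sites (15.35 to 18.7), 9.16% in introns, 4.86% at transcript ends, 3.51% in 5′ untranslated regions and 2.15% in 3′ untranslated regions. By canonical transcripts 66.85% were in coding sequence. Peaks of one gene share a transcript, so these intervals, which take peaks as independent, are too narrow.

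Genes with peaks in wild-type and in other lists gave the comparison. The exon share was 63.71% for the 245 genes that also had vector peaks, 48.54% for the 206 that also had G325E peaks, and 50.61% for the 801 genes in all 3 lists. The promoter share ran the other way, at 11.2%, 23.82% and 21.19%. The 257 genes lay between the vector-sharing and G325E-sharing genes on both measures. Their intervals did not meet those of the other groups, but they are too narrow, so this does not set the groups apart. For genes with most peaks on their own transcripts the promoter share was 19.64% (17.67 to 21.74). That interval meets the 20.33 to 22.06 of genes in all lists. The 5′ untranslated share was 3.7% for vector-sharing, 8.54% for G325E-sharing and 5.74% for genes in all lists, and the first of these overlapped the 3.51% of the set.

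**Figure D2:**
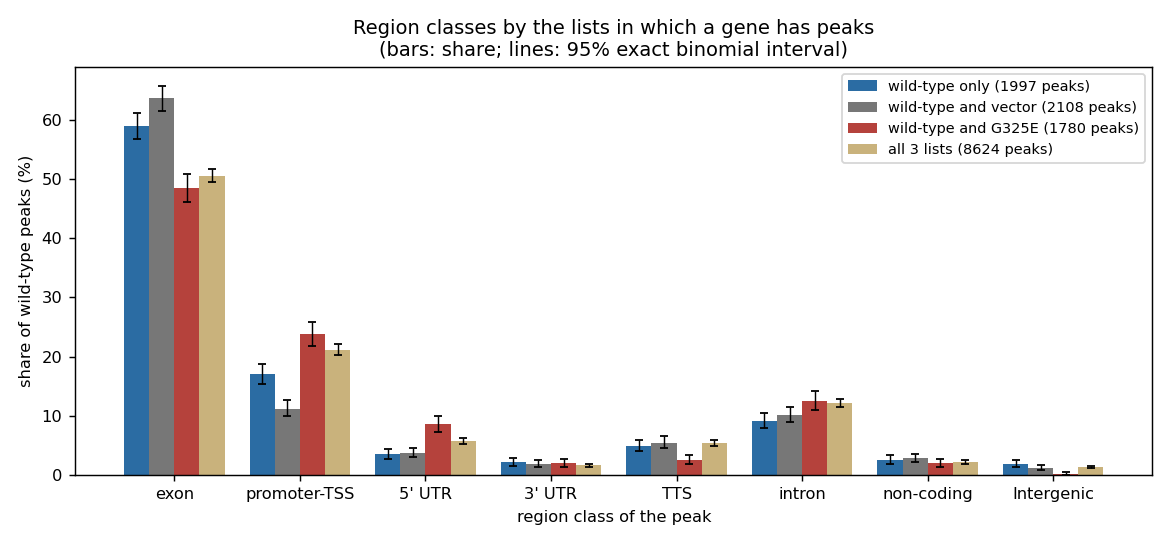
Share of wild-type peaks (y axis, %) in each region class (x axis) for genes with peaks only in wild-type (blue), in wild-type and vector (grey), in wild-type and G325E (red) and in all 3 lists (tan), with 95% exact binomial intervals as lines. The wild-type-only genes sit at 59.04% for exons and 16.98% for promoters, between the grey and red bars in both.

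Individual genes differed in this respect. Exon-class peaks made up more than 50% of the peaks of 150 genes and all peaks of 59, while 51 genes had none. Promoter peaks made up more than 50% for 36 genes, transcript-end peaks for 9, and intron and non-coding peaks for 7 each. SRPK2, an SR protein kinase, had 6 of its 14 peaks at the promoter, 6 in an intron and 2 in an exon. NUDT11, a diphosphoinositol polyphosphate phosphatase, had 6 promoter and 7 exon peaks. C17orf49 had 9 peaks at a transcript end and 6 at the promoter.

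GC content followed the same order. The median GC in 31 bases around the midpoint was 61.29% for the set, 58.06% for vector-sharing, 67.74% for G325E-sharing and 64.52% for genes in all lists. For exon-class peaks alone the medians were 58.06%, 54.84%, 64.52% and 58.06%, so the set and the genes in all lists were level there. The median peak length was 27 bp in the set and 27 to 28 bp in the other groups.

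Split by the GC content of the canonical coding sequence, 19.89% of the 357 genes in the lowest quartile were in the set (15.87 to 24.41), 17.13% and 16.01% in the middle quartiles and 14.57% in the highest (11.07 to 18.66). These intervals overlap. The share of genes at 0 in G325E ran from 43.42% in the lowest quartile to 22.41% in the highest, whereas the share at 0 in vector was 30.53%, 30.62%, 26.69% and 33.89%.

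Start codons carried a peak in fewer genes of the set than of the genes in all lists. A wild-type peak covered the annotated start codon in 55 of 241 genes (22.82%, interval 17.68 to 28.65), against 24.89% of 229 vector-sharing genes, 28.5% of 193 G325E-sharing genes and 42.2% of 763 genes in all lists (38.67 to 45.8). Only the interval of the genes in all lists lies clear of that of the set. Those genes also had more wild-type peaks, with a median of 9 per gene beside 7 in the set. A gene with more peaks has more chances of one over its start codon, and the groups were not matched for peak number here. Genes with a covered start codon included AEN, NUDT11, FSTL1, GJA1, SRPK2, UBXN4 and IDH3B. Along the coding sequence the median peak position was 0.557 of its length in the set, 0.590, 0.437 and 0.517 in the other groups, and 11.09% of coding peaks lay in the first 10% of the coding sequence.

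Coding peaks of many genes covered part of the reading frame. Over the 133 genes with 5 or more coding peaks on the main transcript, the first and last peak spanned a median of 31.55% of the coding sequence (quartiles 17.20 and 51.94). The span was 42.75% for 153 vector-sharing genes, 36.66% for 76 G325E-sharing genes and 65.02% for 427 genes in all lists. Under 50% of the coding sequence was spanned in 97 of the 133 genes (72.93%, interval 64.55 to 80.27), in 86 of the 153 vector-sharing genes (56.21%, 47.97 to 64.21), in 46 of the 76 G325E-sharing genes (60.53%, 48.65 to 71.56) and in 151 of the 427 in all lists (35.36%, 30.83 to 40.1). The interval of the set overlaps that of the G325E-sharing genes. More peaks give a wider span, but among genes with exactly 6 coding peaks the medians were 29.01% in the set (30 genes), 38.26% in vector-sharing (31 genes), 27.12% in G325E-sharing (15 genes) and 55.51% in all lists (75 genes). With exactly 7 coding peaks the medians were 27.63%, 59.11%, 51.90% and 54.75% in the same order. With exactly 9 they were 44.36%, 33.13%, 40.68% and 78.08%, with 11, 6, 11 and 33 genes. The order of the set, vector-sharing and G325E-sharing genes thus changed with peak number. A short span was not particular to the set. The median coding sequence was 1347 nt in the set, 1143 nt in vector-sharing, 1593 nt in G325E-sharing and 1086 nt in all lists.

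TOP2A, the type II topoisomerase of dividing cells, was one such gene (chr17:38548321-38555321, minus strand). All 16 of its peaks were in 8 exons between codons 1091 and 1371, or 18.27% of the frame. SMC3, a cohesin subunit, had 7 peaks between codons 324 and 425, spanning 8.24% of its frame. DNMT3B, a de novo DNA methyltransferase, had 7 between codons 315 and 427, and MDC1 had 16 between codons 1639 and 2008. Each of these stretches is a small part of a long coding sequence, and no other coding peak was assigned to these genes in any list.

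Other genes were covered from end to end. HEXIM1, an inhibitor of the transcription elongation factor P-TEFb, had 15 coding peaks from codon 38 to codon 341 (84.31% of its frame). GSTP1, a glutathione transferase, spanned 95.24%, and the p53-induced nuclease AEN 90.56%. These are short genes with coding sequences of 1077, 630 and 975 nt.

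**Figure D3:**
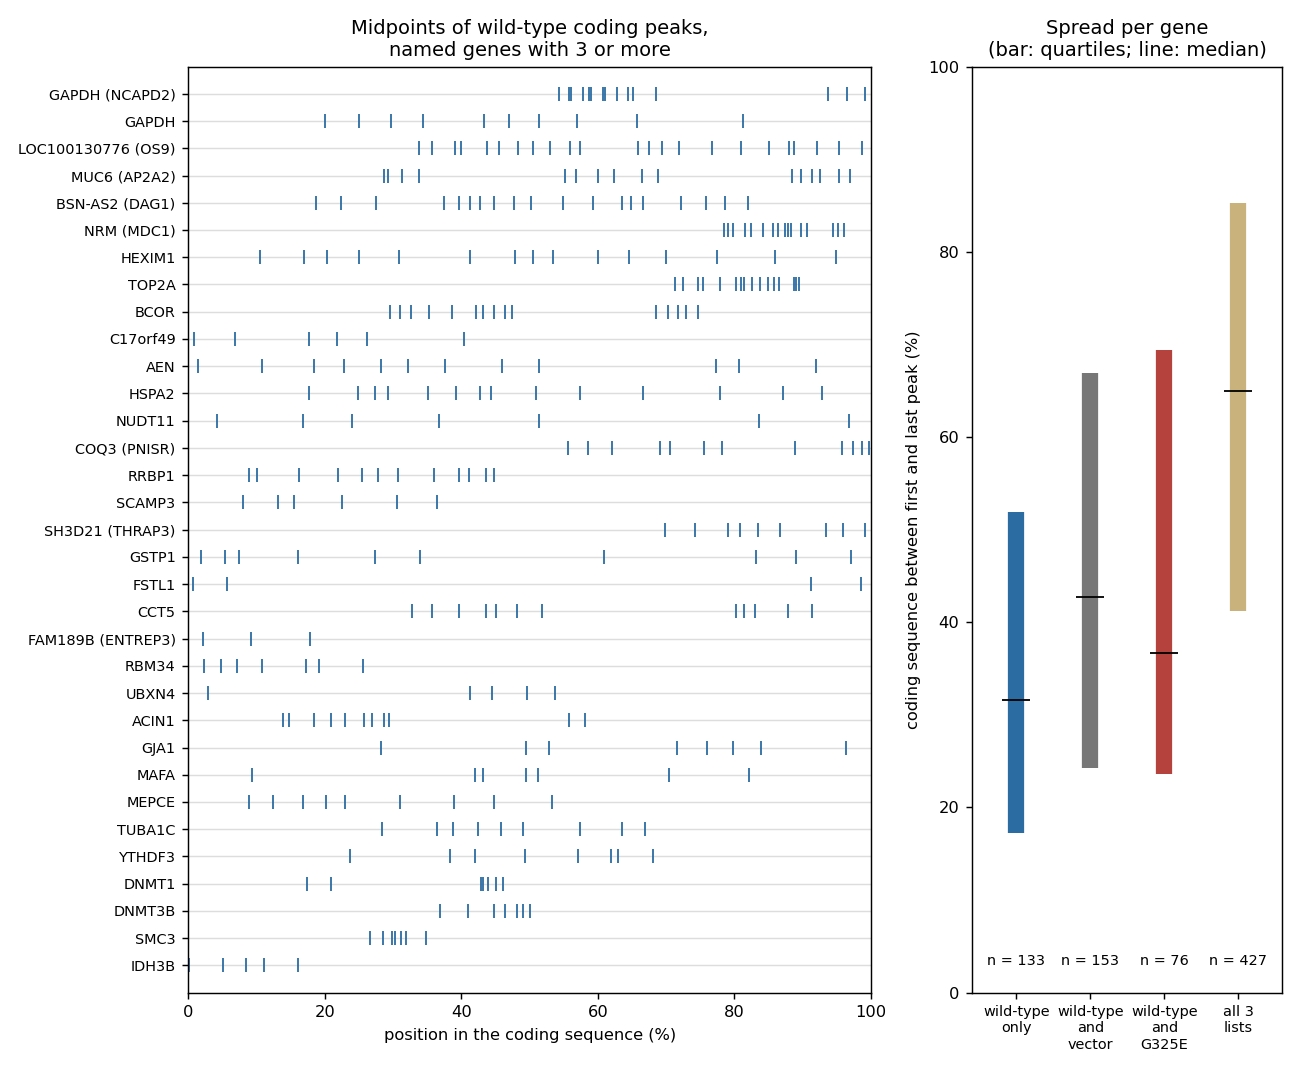
Left, midpoints of wild-type coding peaks (ticks) along the coding sequence (x axis, %) of named genes with 3 or more coding peaks, with the gene that holds them in brackets. Right, share of the coding sequence between the first and last peak (y axis, %) by the lists in which a gene has peaks, as quartiles and median, with medians of 31.55% for wild-type-only, 42.75% for vector-sharing, 36.66% for G325E-sharing and 65.02% for genes in all 3 lists and overlapping quartiles.

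In 37 genes every peak lay in a single exon. With 8 or more peaks these included DAG1 (19, under BSN-AS2), HEXIM1 (16), the testis-enriched chaperone HSPA2 (14), PNISR (13, under COQ3), LRRFIP1 (12, under RBM44), PIPSL (11), the gap junction protein GJA1 (10), the transcription factor MAFA (10), MEPCE (9), TUBA1C (9), YTHDF3 (9) and PDIA3P (9). PIPSL and PDIA3P are retrocopies, whose sequence closely matches that of a parent gene, so reads may have been split between copies. PSMD4, a parent of PIPSL, had 9 vector, 12 wild-type and 3 G325E peaks, and PIP5K1A, its other parent, had none. PDIA3, the parent of PDIA3P, had none in any list.

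The families to which members of the set belong were drawn up after the set was known, and their counts are a description only. Genes in the set are listed at 0 in vector and G325E throughout, so the values that follow for them are wild-type peaks. Where a relative is given with 3 numbers, these are its vector, wild-type and G325E peaks.

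The particle that holds P-TEFb inactive was represented by both of its family members with any peak, HEXIM1 with 16 peaks and MEPCE, which caps 7SK RNA, with 9. LARP7, CDK9 and the T-type cyclins had no peak in any list. Both type II topoisomerases were in the set, TOP2A with 16 peaks and TOP2B with 11. Of 4 DNA methyltransferase genes, DNMT1, which maintains methylation after replication, had 7 peaks and DNMT3B had 7, and the others had none in any list. The share over all genes with 5 or more wild-type peaks was 17.0%. These families were gathered with the set in view, so their shares are no finding about them.

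Chromatin proteins and the ID inhibitors differed in pattern from gene to gene. The heterochromatin protein CBX5 had 5 peaks. Its relatives CBX6, with 19 in wild-type and 11 in G325E, CBX1, with 4 and 8, and CBX8, with 4 and 6, had 0 in vector only, and CBX3 had peaks in every list (8, 12 and 7). BCOR, a corepressor that works with BCL6, had 15 peaks between codons 519 and 1310, 10 of them in a single exon. ID1 had 6 peaks and ID3 had 7, whereas ID2, with 7, 7 and 10, and ID4, with 11, 11 and 14, were in all lists, although these helix-loop-helix inhibitors are close relatives.

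Of 37 factors that build the small ribosomal subunit, 17 had 5 or more wild-type peaks and 9 of these were in the set, beside 17.0% of all genes. They were MPHOSPH10 with 11 peaks, LTV1 with 11, NGDN with 8, IMP4, BMS1 and KRR1 with 6 each, NOB1 and HEATR1 with 5 each, and EMG1, whose 6 peaks lay on PHB2. The family was gathered with the set in view, so its share is no finding about these factors. Others of the family were in every list, among them NOP14 (7, 16 and 6), RRP7A (9, 15 and 4), WDR43 (8, 13 and 3) and TSR1 (7, 11 and 10). FBL, the methyltransferase fibrillarin, had 8, 6 and 0.

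Nuclear transport receptors followed the same mixed course. XPO1, the main exporter of proteins with leucine-rich signals, had 10 peaks. Of these, 4 were in the promoter class, 4 in 5′ untranslated regions and 2 in introns. TNPO1, which imports RNA-binding proteins, had 9, and RCC1, the exchange factor for RAN, had 5. KPNB1 had 7, 19 and 3 and RAN had 5, 7 and 11. Of 23 genes of this group 9 had 5 or more wild-type peaks and 3 of these were in the set, beside 17.0% of all genes. This group too was gathered with the set in view.

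Chaperones were likewise divided within families. CCT5, a chaperonin subunit, had 12 peaks, but CCT4 (8, 9 and 9) and CCT6A (7, 11 and 4) were in every list. The proteins form one complex, and TCP1, CCT3, CCT7 and CCT8 had no peak in any list. Of the HSP70 family, HSPA2 (14), HSPA8 (9) and the pseudogene HSPA7 (6) were in the set, while HSPA1A (14, 15 and 16), HSPA1B (19, 18 and 23) and HSPA5 (23, 28 and 8) were not. Some genes of this family are near-identical in parts, so reads may have been split between those. HSPA6, a relative of HSPA7, had 0, 6 and 7. The cyclophilins PPIF with 9 and PPIG with 8 were in the set, and PPIB was in all lists with 6, 12 and 3.

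TUBA1C, an alpha tubulin, had 9 peaks between codons 128 and 301. Its paralogs TUBA1A (8, 19 and 8) and TUBA1B (12, 20 and 0), which are close to it in sequence, were present in vector. Of the readers of methylated adenosine, YTHDF3 with 9 peaks and YTHDF2 with 6, were in the set, and YTHDF1 had 0, 5 and 8. For SR protein kinases, SRPK2 had 14 peaks and SRPK1 had 4, 7 and 0.

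**Figure D4:**
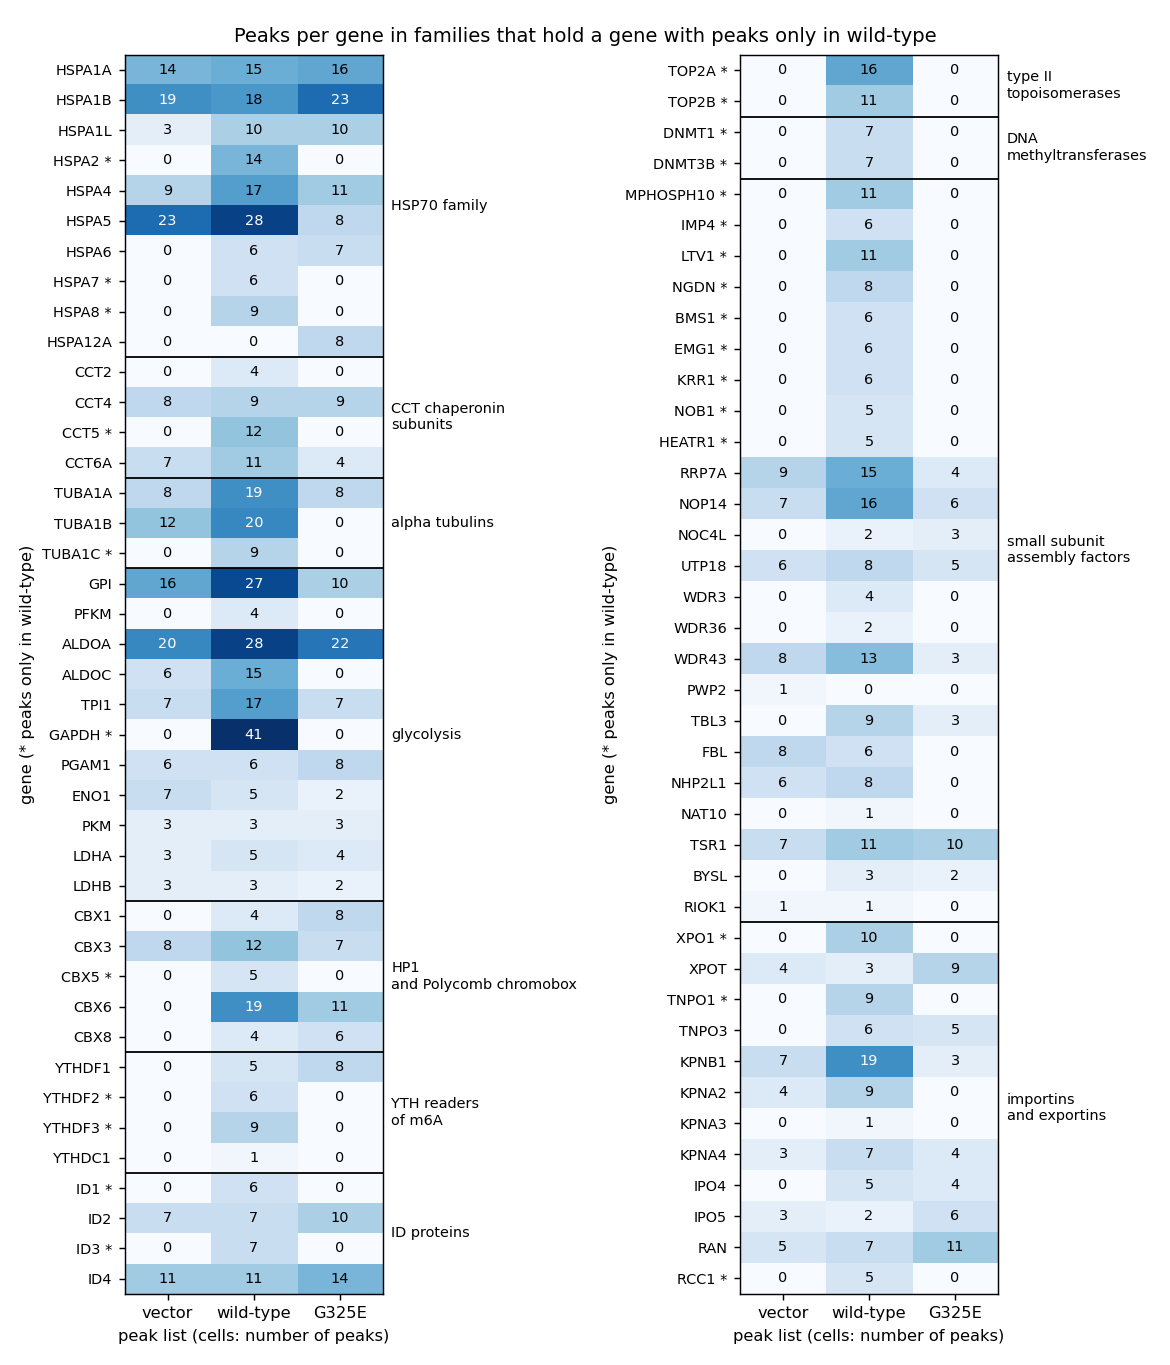
Number of peaks (cells, darker for more, with the shade capped at 30) in the vector, wild-type and G325E lists (x axis) for genes of 11 of the families that hold a gene with peaks only in wild-type, which are starred (y axis). Starred genes read 0 in the outer columns (the 6 peaks of EMG1 lie on PHB2), and most families hold other genes with peaks in every list.

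Fixed pathway lists were set against the share over all genes, which differed with peak number. It was 22.54% of the 284 genes with exactly 5 wild-type peaks. Of the 335 genes with 10 to 14 peaks it was 12.54%, and of the 205 with 15 to 49 it was 4.39%. Neither these lists nor the families above were matched for peak number. Across 11 lists of 237 genes, 43 had 5 or more wild-type peaks and 6 of these (13.95%) were in the set, beside 17.0% of all genes. They were TOP2A with 16 peaks, the ubiquitin ligase HUWE1 with 8, DNMT1, DNMT3B and SMC3 with 7 each, and IDH3B, a subunit of isocitrate dehydrogenase, with 5. HUWE1 had 4 of its 8 peaks in the 5′ untranslated region and IDH3B had all of its peaks in the first 62 codons.

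By list, the set held 1 of 5 genes of cohesin and condensin, 1 of 4 of mitotic kinases and kinetochores, 1 of 5 ubiquitin ligases and deubiquitinases, 2 of 7 histone and DNA modifying enzymes, and 1 of 2 of the tricarboxylic acid cycle. It held 0 of 2 genes of DNA repair, 0 of 4 of vesicle coats, 0 of 2 of mRNA decay, 0 of 3 of growth factor signalling, 0 of 3 of cell adhesion and 0 of 6 of mitochondrial import. NCAPD2 and CPSF1, which are on these lists, are not among those counts because their peaks were assigned to GAPDH and to microRNA names.

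The remaining genes with the most peaks covered varied roles. RRBP1, a ribosome-binding protein of the endoplasmic reticulum, had 12 peaks and the longest in the set's leading genes at 253 bp. SCAMP3, a membrane trafficking protein, FAM189B, the secreted follistatin-like protein FSTL1 and the RNA-binding protein RBM34 had 12 each. UBXN4, which recruits the ATPase VCP to the endoplasmic reticulum, had 11, and ACIN1, a component of the exon junction splicing machinery, had 11, of which 9 were in a single exon. Across these genes the median GC of peaks ran from 51.61% in ACIN1 to 72.58% in FSTL1, with TOP2A at 38.71% and MAFA at 79.03% beyond them.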

How the data were processed

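The deposited files are lists of ribosome peaks in GRCh37 (hg19) coordinates. Their values are positions and annotations, not counts, and there is no score. Per the labels and methods, the authors trimmed reads with cutadapt, aligned them with BWA 0.5.5, removed duplicates, called peaks above a coverage cut-off in each library separately, reviewed them by eye and annotated them with HOMER, so a region just under the cut-off leaves no row. Host genes came from the RefSeq identifier of a row, paired with symbols within the lists, else from the nearest gene. Positions, GC content and sequences used GRCh37 and GENCODE release 44 lifted to it, and 223 of the 257 genes matched an annotated span. Named genes were the 25 with the most peaks (ties by total peak length), those on a pathway list, and those with 8 or more peaks, all in 1 exon, plus up to 10 genes just outside the rule. The genes and lists were chosen with earlier results of these data known. With 1 library per construct nothing was tested across libraries, and intervals are 95% exact Clopper-Pearson. Some items met by these rules are not reported here. The counting code was tested on simulated data. Alternatives varied host assignment, strand, classes, thresholds and peak merging. Python 3.11.15, numpy 2.4.6, pandas 2.3.3, scipy 1.17.1 and matplotlib 3.10.9 were used.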

Additional observations from a re-analysis of the deposited data

How the results depend on the processing

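The number of genes with peaks only in wild-type was 257 and stayed within 173 to 338 under 10 of 13 alternatives. Of these 13, the 2 that took host genes from the RefSeq table or from canonical exons were chosen after seeing the data, as was the restriction to genes on their own transcripts below. It was 92 (12.43% of those eligible) when only the 11219 longest peaks of every list were kept, 99 (12%) with 8 or more wild-type peaks and 129 (14.01%) with peaks within 30 bp counted once. Each of these leaves fewer wild-type peaks or a stricter entry. The exon share of peaks was 65.42% on the gene strand, 63.07% with 8 or more peaks and 66.85% by canonical regions. The promoter share was 14.36% on the gene strand, 13.03% with 8 or more peaks and 19.64% for genes with most peaks on their own transcripts, for which the median coding position was 0.490. Whole-peak GC content had a median of 62.96%. The cause of these shifts was not tested. No paired analysis was possible because each construct has 1 library, and no replicate could be left out. Without peak heights or reads per peak, a gene at 0 and a gene under the peak cut-off cannot be told apart.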
